A study of Mus musculus with 4 samples.

Results

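Nos1 Sst cells without Chodl are GABA-producing neurons with transcripts of somatostatin (Sst) and of neuronal nitric oxide synthase (Nos1) and no captured transcript of Chodl, a membrane protein of the lectin type. They were selected on their counts of UMIs (unique molecular identifiers, each standing for 1 captured transcript). A cell was chosen by having 200 to 6000 genes, under 30% mitochondrial UMIs, at least 2 UMIs of Gad1 and Gad2 together, 0 Mog UMIs, an Sst level of at least 3000 CPM (UMIs scaled to 1000000 per cell, or per sum of cells), at least 3 Nos1 UMIs and 0 Chodl UMIs. Of 26987 cells in all, 26201 passed the limits on genes and mitochondrial UMIs, 9939 of these also passed the Gad and Mog steps, and 4720 of those were Sst cells by the Sst step. In the end 69 cells met every step, and these are called members. They made up 0.263% of the 26201 cells and 1.46% of the Sst cells (95% Wilson interval 1.16 to 1.85%). The Wilson intervals for shares and exact Poisson intervals for levels used throughout cover counting error only. Beside a count of 0 the share it allows is given as 3 counts of the total instead.

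Frontal cortex and hippocampus of juvenile mice (postnatal days 18 to 20) were dissociated, TdTomato-positive cells were sorted, and their RNA was read cell by cell on the 10x Genomics platform. All mice carried Nkx2-1-Cre, which drives recombination in the lineage of the medial ganglionic eminence, an embryonic source of interneurons, and the Ai14 allele, which then gives TdTomato. WT mice had the genotype Grin1 wt/wt, and their null littermates Grin1 fl/fl lose the obligatory subunit of the NMDA receptor in recombined cells; both sexes were used, and mice were pooled within a library. Each region has 3 WT and 2 null libraries. The chemistry of the 10x kit was version 2 for every replicate 1 but version 3 for all later replicates. Effects of chemistry and replicate therefore cannot be told apart. The paper describes both regions as taken from the same set of brains. Cortex and hippocampus libraries of one replicate and genotype may therefore share mice, but they are counted and tested here as separate libraries.

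The UMI totals of WT cortex replicates 1, 2 and 3 were 9306756, 14212183 and 28057207, and those of null cortex replicates 1 and 2 were 1488601 and 25688337. In the hippocampus, WT replicates 1, 2 and 3 had 10555408, 8782181 and 20639002 UMIs, and null replicates 1 and 2 had 3856745 and 47338167. Median depth per cell ran from 1479 UMIs in WT hippocampus replicate 2 to 9508 in null hippocampus replicate 2, and within WT hippocampus from 1479 to 5741. Libraries were told apart by the suffix of the cell barcode. Of 26892 barcode sequences, 95 were seen in more than 1 library. Among the members 2 had a barcode that another library also held, and no barcode was shared by a pair of members.

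Somatostatin interneurons mostly inhibit the dendrites of nearby principal neurons. A rare kind of them with Nos1 and Chodl is known for long-range axons, much neuropeptide Y (Npy) and the substance P receptor Tacr1, and for being active in sleep; its nitric oxide diffuses to neighbouring cells and activates guanylyl cyclase there. Nos1 is also known, at lower levels, from neurogliaform and ivy cells, which have little Sst and are marked by Lamp5.

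3 sets of cells from the same libraries serve for comparison. The Chodl-positive cells, 423 in number, met the same steps but had at least 1 Chodl UMI. The Nos1-zero Sst cells, 3776 in number, were Sst cells with 0 UMIs of both Nos1 and Chodl. The Sst-low Nos1 cells, 577 in number, met every step of the members except that Sst was under 3000 CPM. The median depth was 12480 UMIs in members, 14789 in Chodl-positive cells, 7494.5 in Nos1-zero Sst cells and 13126 in Sst-low Nos1 cells.

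Members were found in 8 of the 10 libraries. WT cortex replicates 1, 2 and 3 had 5 of 470, 19 of 931 and 6 of 1307 Sst cells, or 1.06%, 2.04% and 0.459%. Null cortex replicates 1 and 2 had 1 of 79 and 16 of 462, or 1.27% and 3.46%. The null values lay on both sides of the highest WT value, so the groups overlapped. In the hippocampus, WT replicates 2 and 3 had 5 of 419 and 3 of 235 (1.19% and 1.28%), and null replicate 2 had 14 of 573 (2.44%). Replicate 1 of each hippocampal group had no member, with 0 of 181 WT Sst cells, which allows a share of up to 1.66%, and 0 of 63 null Sst cells, which allows up to 4.76%. Both of these libraries were made with version 2 of the chemistry.

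How common the members are in null and WT tissue was tested by exact permutation of whole libraries, two-sided, with Benjamini-Hochberg adjustment over the 5 share tests run. With 3 libraries on one side and 2 or 3 on the other, no p under 0.1 is possible. In the cortex the mean share was 2.36% ± 1.55 (SD, n = 2) in null and 1.19% ± 0.798 (SD, n = 3) in WT libraries, a difference of 1.18 points (exact permutation p = 0.4, adjusted 0.75). That difference rests on null cortex replicate 2, without which it is 0.0779 points, and it is 2.28 points without null cortex replicate 1. In the hippocampus the means were 1.22% in null and 0.823% in WT libraries, a difference of 0.398 points (exact permutation p = 1.0), which becomes -0.823 points without null hippocampus replicate 2 -0.0133 without WT hippocampus replicate 1 and 1.62 without null hippocampus replicate 1. Between the regions of WT mice, hippocampus minus cortex was -0.365 points (exact permutation p = 0.6, adjusted 0.75), 0.0619 points without WT cortex replicate 2 and 0.0471 without WT hippocampus replicate 1. None of the 3 differences exceeded the larger SD of the groups compared, but the cortical one exceeded the WT SD of 0.798. Within a replicate, and so within a chemistry, null was above WT in cortex replicates 1 and 2 and in hippocampus replicate 2, while hippocampus replicate 1 had 0 in both; with 2 such pairs per region no test was made. WT hippocampus was under WT cortex in replicates 1 and 2 and above it in replicate 3.

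Among Nos1 Sst cells, that is members and Chodl-positive cells together, the share without Chodl was compared in the same way. The 3 WT cortex libraries, in order of replicate, had 5 of 41, 19 of 155 and 6 of 76 cells, or 12.2%, 12.3% and 7.89%. Null cortex replicates 1 and 2 had 1 of 6 and 16 of 173, or 16.7% and 9.25%. Each of the 5 cortical libraries was thus under 17%. In the hippocampus WT replicates 2 and 3 had 5 of 13 (38.5%) and 3 of 4 (75.0%), and null replicate 2 had 14 of 24 (58.3%); the other 2 hippocampal libraries had no Nos1 Sst cell. Pooled, the share was 47 of 451 cells in cortex (10.4%, Wilson 7.93 to 13.6%) and 22 of 41 in hippocampus (53.7%, 38.7 to 67.9%).

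Over WT libraries the hippocampal mean of 56.7% (2 libraries) lay 45.9 points above the cortical mean of 10.8% (3 libraries), with no overlap (exact permutation p = 0.1, the smallest possible, adjusted 0.5). The permutation treats the cortex and hippocampus libraries of a replicate as separate, although they may share mice. Leaving out WT hippocampus replicate 3 gives 27.7 points and leaving out WT hippocampus replicate 2 gives 64.2 points, each with 1 hippocampal library. The difference was also smaller with a higher Nos1 threshold and after thinning, each time with few hippocampal cells. With at least 5 Nos1 UMIs it was 5.19 points (exact permutation p = 0.8), where WT hippocampus replicates 2 and 3 had 3 of 11 and 0 of 1 cells. After thinning it was 26.1 points (exact permutation p = 0.5), where WT hippocampus replicates 1, 2 and 3 had 0 of 1, 5 of 9 and 1 of 1. Over the alternatives that change the selection of cells, p ran from 0.1 to 0.8. Null minus WT was 2.18 points in the cortex (exact permutation p = 0.6, adjusted 0.75), -1.53 points without null cortex replicate 1, which has 6 such cells, and 5.88 points without null cortex replicate 2. It was -5.14 points with at least 5 Nos1 UMIs (exact permutation p = 0.3) and 24.2 points after thinning (exact permutation p = 0.1, the smallest possible), where null cortex replicate 1 had 3 Nos1 Sst cells. Within replicate 1 null was above WT, and within replicate 2 it was under it. Null minus WT in the hippocampus, 1.60 points, sets 1 null library against 2 WT libraries and was not tested.

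**Figure D1:**
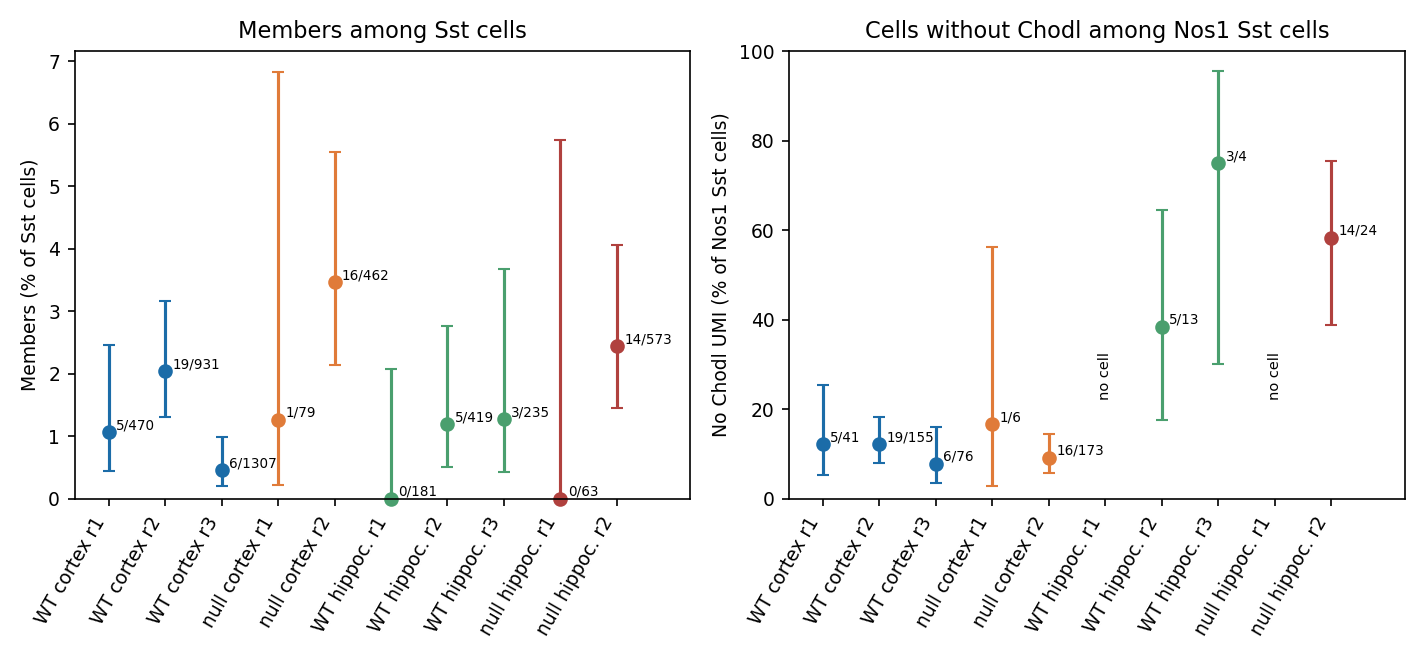
Left, members as a percentage of Sst cells in each of the 10 libraries; right, cells without a Chodl UMI as a percentage of Nos1 Sst cells, with the counts beside the points and bars for 95% Wilson intervals (r is the replicate, hippoc. the hippocampus). In the right plot the cortical libraries lie between 7.89% and 16.7% and the hippocampal libraries with such cells between 38.5% and 75.0%.

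The values that chose the members are given as a description. Sst ranged from 3037 to 94583 CPM with a median of 15173, against a median of 25857 in Chodl-positive cells. Nos1 ranged from 3 to 60 UMIs with a median of 7 UMIs, and from 3 to 89 with a median of 32 in Chodl-positive cells. Nos1 is part of the rule, so these counts are no comparison of expression. The members were shallower in each of the 8 libraries with both, with a median of 4338 against 8392 UMIs in WT cortex replicate 2, which has the most members. Just inside the Nos1 threshold were 20 members with 3 Nos1 UMIs and 8 with 4, and just outside it were 95 Sst cells with 2 Nos1 UMIs and no Chodl and 319 with 1. Near the Sst threshold were 5 members under 4000 CPM, and 5 cells with 2000 to 3000 CPM failed that step alone. On the Chodl side, 52 Chodl-positive cells had a single Chodl UMI and 37 had 2, with a median of 5 and a highest count of 22.

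Whether a cell counts as lacking Chodl moved with its Nos1 count and, in the cortex, with its depth. Of Nos1 Sst cells with 3 or 4 Nos1 UMIs, 28 of 33 (84.8%, Wilson 69.1 to 93.3%) had no Chodl UMI, of those with 5 to 11 it was 17 of 47 (36.2%, 24.0 to 50.5%), and of those with 12 or more it was 24 of 412 (5.83%, 3.95 to 8.52%). The regions differed in their Nos1 counts, as 17 of 41 hippocampal and 16 of 451 cortical Nos1 Sst cells had 3 or 4 Nos1 UMIs. At 3 or 4 Nos1 UMIs the share without Chodl was 12 of 16 in cortex and 16 of 17 in hippocampus, at 5 to 11 it was 13 of 41 and 4 of 6, and at 12 or more it was 22 of 394 (5.58%, 3.72 to 8.31%) and 2 of 18 (11.1%, 3.10 to 32.8%). In each of these bins the hippocampal share was the higher one. The cells were pooled over libraries, so the regions were not tested within bins. In cortical cells of up to 6000 UMIs the share was 17 of 70 (24.3%), from 6000 to 12000 UMIs it was 11 of 111 (9.91%), and above 12000 UMIs it was 19 of 270 (7.04%). The cortical share thus fell with depth. In the hippocampus it was 16 of 28 (57.1%) above 12000 UMIs, beside 4 of 9 and 2 of 4 cells in the shallower bins. Whether the members lack Chodl transcripts or only a captured one was not tested.

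Thinning gives the size of the depth effect on the selection. When each cell with at least 3000 UMIs was thinned to 3000 UMIs and selected again, 119 cells were members. Of these, 89 (74.8%) were Chodl-positive at full depth, 25 (21.0%) were members at full depth and 5 were neither. At this depth, then, most cells that met the rule had a Chodl UMI among the UMIs that were removed. Of 414 Chodl-positive cells with at least 3000 UMIs, 295 kept a Chodl UMI. At full depth 62 members had at least 3000 UMIs and 7 had fewer.

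Oxt, Tacr1 and Lhx6 were named as markers of these cells beside Nos1 and Sst, and are given as a description. Oxt encodes the hormone oxytocin, on chromosome 2 (130576173 to 130577054, GRCm38). An Oxt UMI was found in 0 of 69 members, which allows a share of cells with a UMI of up to 4.35%, and after thinning it was also 0 of 62. The share was 0.236% in Chodl-positive cells (1 of 423), 0.265% in Nos1-zero Sst cells, 1.04% in Sst-low Nos1 cells (6 of 577) and 0.360% in Mog-positive cells. Thinned, the Oxt shares in the comparison sets were 0%, 0.126%, 0.357% and 0.133% in that order. The Mog-positive cells are all cells within the limits on genes and mitochondrial UMIs that had a Mog UMI, with a median of 5899 UMIs. Of these, 12.3% had a Gad1 UMI and 22.9% an Sst UMI, so they are not a pure set of oligodendrocyte-lineage cells. The members were at 0 in every library and under all 5 alternative selections, so no Oxt signal was detectable in them, and at 69 cells a share like that of Mog-positive cells would not be seen either.

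Of the 26201 cells, 85 had an Oxt UMI and 79 of those had just 1. The other end was 4 cells of WT cortex replicate 2 with 292 to 638 Oxt UMIs, which held 1856 of all 1942 Oxt UMIs, had 0 Sst UMIs and did not pass the Gad and Mog steps. The oxytocin receptor Oxtr, by contrast, was seen in 14 of 69 members (20.3%), in 52.5% of Chodl-positive cells, in 12.3% of Nos1-zero Sst cells, in 4.33% of Sst-low Nos1 cells and in 0.837% of Mog-positive cells. Thinned, these Oxtr shares were 6.45%, 18.1%, 5.65%, 1.79% and 0.356%. The label thus holds for Nos1 and Sst by construction, while Oxt was not found.

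Tacr1, the receptor for substance P, had a UMI in 26 of 69 members (37.7%, Wilson 27.2 to 49.5%), in 77.5% of Chodl-positive cells, in 0.715% of Nos1-zero Sst cells, in 16.5% of Sst-low Nos1 cells and in 0.911% of Mog-positive cells. Thinned to 3000 UMIs, the Tacr1 shares were 16.1%, 37.4%, 0.284%, 4.46% and 0.519% in that order. Members therefore stood between the Chodl-positive cells and the other Sst cells. Per library, Tacr1 in members of WT cortex was 68.8, 217 and 213 CPM in order of replicate, and in members of null cortex 0 and 157 CPM. It was 98.4 and 0 in WT hippocampus replicates 2 and 3 and 3.70 in null hippocampus replicate 2. The 3 low values came from the 3 libraries in which most members had 3 or 4 Nos1 UMIs.

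Lhx6, a transcription factor of interneurons from the medial ganglionic eminence, had a UMI in 68.1% of members (47 of 69, Wilson 56.4 to 77.9%), 72.6% of Chodl-positive cells, 50.1% of Nos1-zero Sst cells, 83.2% of Sst-low Nos1 cells and 6.12% of Mog-positive cells. Thinned, the Lhx6 shares were 35.5%, 30.7%, 25.7%, 42.9% and 3.45%. TdTomato, by which the cells were sorted, was seen as Tomato UMIs in 62 of 69 members (89.9%). The Tomato share was 99.1% in Chodl-positive, 92.4% in Nos1-zero Sst, 97.9% in Sst-low Nos1 and 60.4% in Mog-positive cells. Nkx2-1, the factor that drives the Cre, had a UMI in 9 of 69 members (13.04%) and 2.13% of Chodl-positive cells. Its share was 2.52% in Nos1-zero Sst, 56.0% in Sst-low Nos1 and 2.31% in Mog-positive cells. Thinned, Nkx2-1 was in 1.61%, 0.483%, 0.883%, 28.2% and 1.30% of these cells in that order.

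The members varied widely in Npy, the precursor of neuropeptide Y, on chromosome 6 (49822710 to 49829507), which the rule did not use. At least 10000 Npy CPM, a limit set after its values were seen, were found in 42 of 69 members (60.9%), 420 of 423 Chodl-positive cells and 329 of 3776 Nos1-zero Sst cells. The median Npy level was 20920 CPM in members, 64009 in Chodl-positive cells and 560.9 in Nos1-zero Sst cells. In cortex 37 of 47 members reached the limit and in hippocampus 5 of 22. Split by Nos1, it was 6 of 28 members with 3 or 4 Nos1 UMIs and 36 of 41 with 5 or more. No test of these splits was run, since the limit was chosen on the same cells.

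Npy per library followed the same division. It was 32841, 42213 and 34246 CPM in members of WT cortex replicates 1, 2 and 3 and 26955 in null cortex replicate 2. In WT hippocampus replicate 2 Npy was 34798 CPM. The remaining 3 libraries were lower, with Npy at 0 in the 1 member of null cortex replicate 1, 184 CPM in WT hippocampus replicate 3 and 2114 in null hippocampus replicate 2. The latter 2 contributed 3 and 11 of the 28 members with 3 or 4 Nos1 UMIs. In Chodl-positive cells Npy was between 22209 CPM, in the 1 cell of WT hippocampus replicate 3, and 79892 CPM, in null hippocampus replicate 2.

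**Figure D2:**
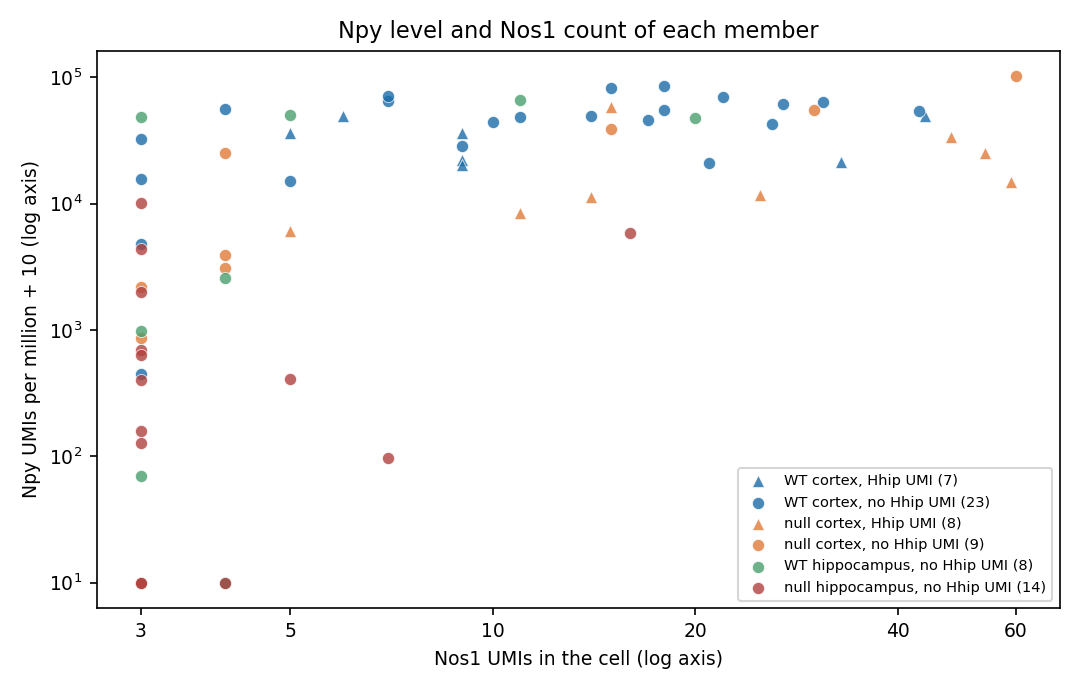
Each point is 1 of the 69 members, with its Nos1 UMIs (x, log axis) and its Npy CPM plus 10 (y, log axis), coloured by group; triangles mark cells with a Hhip UMI. Of the 41 members with at least 5 Nos1 UMIs 36 reach 10000 Npy CPM, against 6 of the 28 with fewer.

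The 28 members with 3 or 4 Nos1 UMIs and the 41 with more were compared gene by gene as a description; the genes were chosen after their values were seen. The 28 had a median of 14513 UMIs and the 41 a median of 6387, so the cells with fewer Nos1 UMIs were the deeper ones. The 28 fell to WT cortex (1, 2 and 3 in replicates 1, 2 and 3), null cortex (1 and 5 in replicates 1 and 2), WT hippocampus (2 and 3 in replicates 2 and 3) and null hippocampus replicate 2 (11). The 41 fell to WT cortex (4, 17 and 3), null cortex replicate 2 (11), WT hippocampus replicate 2 (3) and null hippocampus replicate 2 (3). Library and Nos1 class were therefore not independent.

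Pcp4, a small protein first found in Purkinje cells, had 308 CPM in the 28 members (exact Poisson interval 258 to 366), 6742 in the 41 (6489 to 7001), 6204 in Chodl-positive cells and 252 in Nos1-zero Sst cells. Tacr1 showed the same order, with 2.35, 206, 151 and 0.917 CPM. The calcium buffer Calb1 and the synaptic adhesion protein Elfn1, both known from other Sst cells, were the reverse. Calb1 was 981 CPM in the 28, 193 in the 41, 33.6 in Chodl-positive and 638 in Nos1-zero Sst cells, and Elfn1 was 193, 40.2, 24.3 and 232. These 4 genes were picked after their values were seen. By difference in CPM the 28 members were nearer to the Nos1-zero Sst cells, and the 41 nearer to the Chodl-positive cells. By ratio, Calb1 in the 41 was nearer to the Nos1-zero Sst cells, and the other placements were the same. By difference in CPM, other genes did not follow this. Crhbp was 416, 989, 2735 and 344 CPM in the same order, Penk 35.3, 216, 453 and 42.9, and Oxtr 11.8, 27.6, 73.9 and 21.3. For these genes the 41 were nearer to the Nos1-zero Sst cells by difference. Reln was 65.8, 37.7, 7.45 and 346 CPM, and there the 28 were nearer to the Chodl-positive cells by difference. By ratio only Oxtr stayed so. Crhbp and Penk in the 41 were then nearer to the Chodl-positive cells, and Reln in the 28 to the Nos1-zero Sst cells.

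Within the 41, Hhip, a membrane protein that binds Hedgehog ligands (chromosome 8, 79965851 to 80058006), set apart 15 cells. They came from WT cortex replicates 1 (2 cells) and 2 (5 cells) and null cortex replicate 2 (8 cells), and no hippocampal member had a Hhip UMI. Hhip was in 36.4% of Chodl-positive cells (154 of 423) and in 3 of 3776 Nos1-zero Sst cells, but also in 31.3% of Mog-positive cells, where it is 70.5 CPM. Its level was 790 CPM in the 15 members (659 to 939) and 291 in the 154 Chodl-positive cells with Hhip.

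Other genes moved with Hhip. Galr1, a receptor for galanin, was 185 CPM in the 15 cells with Hhip and 8.46 in the 26 without, and Tacr1 was 352 and 106. Slc5a7, the choline transporter, went the other way with 6.17 and 169 CPM, as did Crhbp, which binds corticotropin-releasing hormone, with 290 and 1469. The Chodl-positive cells with Hhip had the same directions for Galr1 and Slc5a7 against all Chodl-positive cells, with Galr1 at 68.8 against 31.2 and Slc5a7 at 30.7 against 97.2 CPM. The 15 had a median of 10921 UMIs and the 26 a median of 6006. Of the 26, WT cortex replicates 1, 2 and 3 gave 2, 12 and 3 cells. Another 3 each came from null cortex replicate 2, WT hippocampus replicate 2 and null hippocampus replicate 2. Depth and library thus differed between the 15 and the 26. The 15 cells were picked by Hhip after the data were seen, and no test was run.

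What distinguishes members from Chodl-positive cells apart from Chodl was tested on UMI sums per library with the edgeR quasi-likelihood test, with the library as block and Benjamini-Hochberg adjustment. A gene was called at an adjusted p under 0.01 and a log2 change of at least 0.144 in size. The libraries with at least 10 cells of both kinds were WT cortex replicate 2, null cortex replicate 2 and null hippocampus replicate 2. All of these are of replicate 2, made with version 3 of the chemistry, and WT cortex replicate 2 is the only WT library among them. The fit thus holds no other replicate. The other 7 did not enter, and the null libraries among those used may share mice. Of 4222 genes tested, 13 (0.308%) were higher in members and 2 (0.0474%) were lower; 728 had an unadjusted p under 0.05. DESeq2 called 17 higher and 5 lower. The balance turned without a filter on low counts, with 93 higher and 197 lower, but not without TMM, with 36 and 4.

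These calls depend on single libraries. Without WT cortex replicate 2 or without null cortex replicate 2 no gene was called (604 and 408 genes had an unadjusted p under 0.05; DESeq2 was not run on these subsets), while without null hippocampus replicate 2 it was 44 higher and 21 lower. All 15 called genes kept their sign when any 1 of the 3 libraries was left out. With members of at least 5 Nos1 UMIs, which leaves 2 libraries, 16 genes were higher and 15 lower, 14 of the 15 kept their sign and 3 were called again. With cells thinned to 3000 UMIs 1 gene was higher and 1 lower, and of the 15 genes the 3 that could be tested kept their sign and none was called. Sums of at least 5 cells admitted 6 libraries, gave 67 higher and 78 lower, and called all 13 of the 15 genes that passed their filter on low counts.

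Mef2c, a transcription factor that shapes synapses (chromosome 13, 83504034 to 83667080), had the largest rise among these genes. In WT cortex replicate 2, null cortex replicate 2 and null hippocampus replicate 2 it had 226, 215 and 310 CPM in members and 25.4, 4.62 and 18.2 in Chodl-positive cells. Every member value was above every Chodl-positive value. The edgeR log2 change was 4.12 (SE 0.43, adjusted p = 0.00545), higher in 3 of 3 libraries. Yet 24 of the 28 members with 3 or 4 Nos1 UMIs had a Mef2c UMI and 4 of the other 41 did, and with members of at least 5 Nos1 UMIs the log2 change was -0.66.

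Slc24a2, an exchanger of sodium for calcium and potassium, had the lowest adjusted p. It was 253, 196 and 392 CPM in members of the same 3 libraries and 47.1, 28.7 and 36.4 in Chodl-positive cells. The edgeR log2 change was 2.62 (SE 0.22, adjusted p = 0.00110). Grm5, the metabotropic glutamate receptor mGluR5, was 81.4, 115 and 214 CPM against 8.23, 9.91 and 31.9, with an edgeR log2 change of 3.11 (SE 0.31, adjusted p = 0.00252). Both genes were higher in members in 3 of 3 libraries without overlap, and both were higher in the 28 members with 3 or 4 Nos1 UMIs (Slc24a2 409, Grm5 202 CPM) than in the 41 others (148 and 72.8).

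The other 7 named genes that were higher in members span several roles. They are Thsd7a (a membrane protein with thrombospondin domains), St6galnac5 (a sialyltransferase), Pcp4l1 (a relative of Pcp4), Gng13 (a G protein subunit), Btbd3 (which directs dendrites), Sparcl1 (a secreted matrix protein) and Nppc (the C-type natriuretic peptide). Their edgeR log2 changes ran from 2.28 for Nppc to 3.45 for Thsd7a, with adjusted p from 0.00545 to 0.00655. Nppc, whose receptor makes cGMP as nitric oxide's does, had 45.2, 80.6 and 103 CPM in members of the 3 libraries and 9.72, 14.2 and 18.2 in Chodl-positive cells. Of the genes given with their levels, Mef2c, Slc24a2, Grm5 and Nppc were higher still in the Nos1-zero Sst cells, at 338, 540, 227 and 135 CPM, against 267, 283, 140 and 86.2 CPM over all members.

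The genes lower in members were Lypd1 and Tmeff1. Lypd1, which binds nicotinic acetylcholine receptors (chromosome 1, 125867622 to 125913101), had 0, 0 and 3.70 CPM in members of WT cortex replicate 2, null cortex replicate 2 and null hippocampus replicate 2, and 57.6, 84.6 and 164 in Chodl-positive cells. That is 1 UMI against 369 UMIs, a ratio of 0.0194 (exact binomial interval 0.000489 to 0.109), and the edgeR adjusted p was 0.00193, lower in 3 of 3 libraries. Over all libraries Lypd1 had 3 UMIs in the 69 members (3.64 CPM) and was seen in 41.6% of Chodl-positive cells and 6.70% of Nos1-zero Sst cells. Its share in members was 4.35%, between the 0.520% of Sst-low Nos1 cells (median depth 13126 UMIs) and the 10.97% of Mog-positive cells (5899 UMIs); thinned, these were 0%, 0.179% and 7.26%. Tmeff1, a membrane protein with follistatin-like domains, was 226, 272 and 137 CPM in members and 503, 566 and 542 in Chodl-positive cells. Its edgeR log2 change was -1.53 (SE 0.20, adjusted p = 0.00753).

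**Figure D3:**
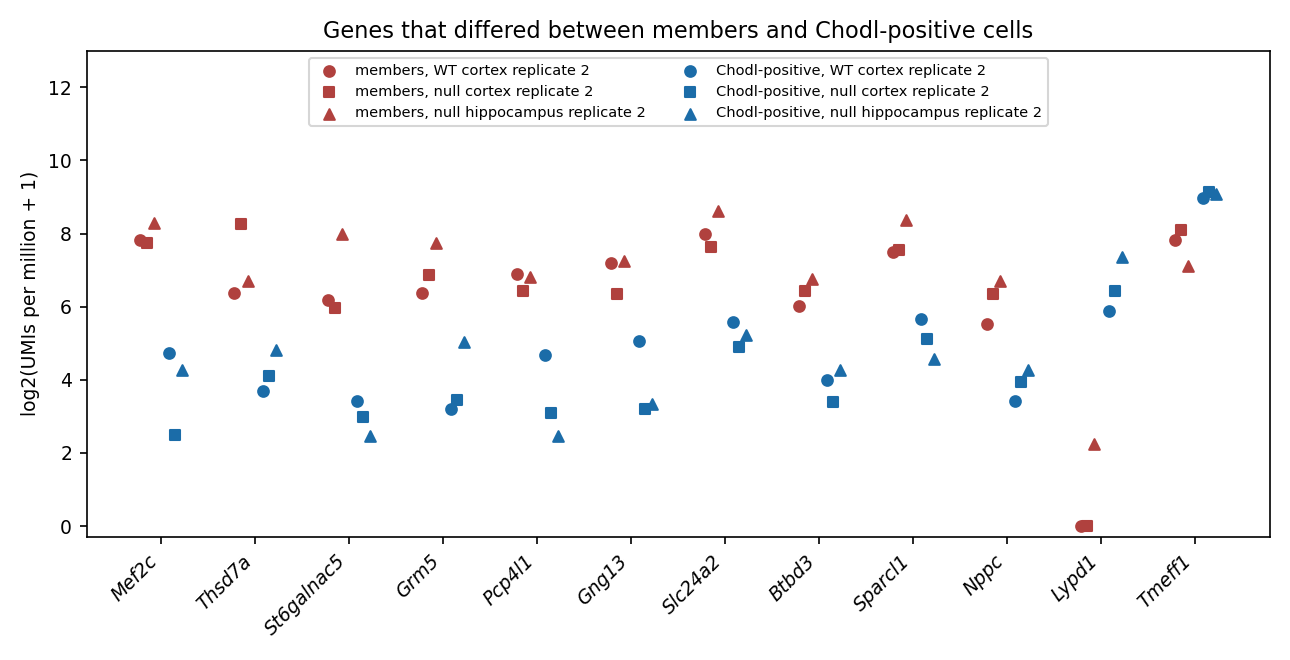
Levels of the 12 named genes, as log2 of CPM plus 1, in members (red) and Chodl-positive cells (blue) of the 3 libraries tested, 1 point per library and kind of cell. The 10 genes on the left are higher in members in 3 of 3 libraries, and Lypd1 and Tmeff1 on the right are lower in 3 of 3.

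Of the 13 genes listed for the long-range Nos1 type, 10 were tested against Chodl-positive cells, 0 were called (beside 0.308% higher and 0.0474% lower over all genes), 1 had a positive change, and the median log2 change was -1.69 against 0.00 over all 4222 genes. Npy had a log2 change of -2.32 (SE 1.61), and Oxtr of -1.54 (SE 0.35, edgeR adjusted p = 0.0628). The log2 change was -0.70 for Tacr1 (SE 1.03) and 0.48 for Lhx6 (SE 0.33). The summed level of the list was 21365 CPM in members, of which Npy was 19848, and 71688 in Chodl-positive cells. Per library the sum ran from 561 CPM in null cortex replicate 1 to 44952 in WT cortex replicate 2.

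The other lists are described by their counts and medians against Chodl-positive cells, beside 0.308% higher and 0.0474% lower over all genes. Of the other 23 lists 4 had 0 genes tested, and in the remaining 19 no tested gene was called. Of 20 genes of nitric oxide and cGMP signalling 12 were tested (median log2 -0.18), of 20 neuropeptides 3 (median -2.08), of 22 neuropeptide receptors 5 (median -0.70), and of 7 NMDA receptor subunits 4 (median 0.09). Of 23 sodium, potassium and HCN channels 15 were tested (median 0.42), of 16 genes of AMPA and kainate receptors 12 (median 0.63), and of 19 genes of GABA synthesis, transport and receptors 12 (median 0.44). Of 19 genes of other Sst subtypes 7 were tested (median -0.04) and of 18 activity-regulated genes 6 (median -0.28).

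Against the Nos1-zero Sst cells, what sets members apart from ordinary Sst cells was asked in the same 3 libraries. By the edgeR quasi-likelihood test with Benjamini-Hochberg adjustment, 6 of 9931 genes (0.0604%) were higher in members and 4 (0.0403%) lower; 597 had an unadjusted p under 0.05, and DESeq2 called 15 and 3. Without WT cortex replicate 2 it was 0 higher and 1 lower (376 genes at an unadjusted p under 0.05; DESeq2 was not run there), without null cortex replicate 2 it was 18 and 19, and without null hippocampus replicate 2 it was 129 and 79. Of the 10 genes, 9 could be tested without WT cortex replicate 2, and 0 of these were called again, with all signs kept. In the other 2 settings all 10 genes were called again. Members of at least 5 Nos1 UMIs gave 151 higher and 148 lower in 2 libraries and also kept all 10. With cells thinned to 3000 UMIs 2 genes were higher and 1 lower, and of the 6 of the 10 genes that could be tested 1 was called again and all kept their sign.

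Among the genes higher in members were Ntn1 (the axon guidance factor netrin-1), Dhrs3 (a retinaldehyde reductase), Pou3f2 (a transcription factor), Zbtb20 (a transcriptional repressor) and Tenm1 (an adhesion protein of synapses). Ntn1, on chromosome 11 (68209364 to 68400823), had 72.3, 57.6 and 11.1 CPM in members of WT cortex replicate 2, null cortex replicate 2 and null hippocampus replicate 2 and 0.265, 0.721 and 0.642 in Nos1-zero Sst cells. Every member value was above every Nos1-zero value, and the edgeR log2 change was 6.002 (SE 0.75, adjusted p = 0.000948). Dhrs3 was 90.4, 84.4 and 7.39 CPM against 1.33, 2.88 and 0.802, with a log2 change of 4.996 (SE 0.62, edgeR adjusted p = 0.000932).

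Pou3f2 belongs to the list of markers of neurosecretory hypothalamic neurons, of which Oxt is another. Pou3f2 was 163, 65.2 and 11.1 CPM in members and 7.16, 1.08 and 1.44 in Nos1-zero Sst cells of the 3 libraries (edgeR log2 4.55, SE 0.56, adjusted p = 0.000932). Over all libraries it was 55.9 CPM in members and 118 in Chodl-positive cells. Of the 9 genes on that list Otp, Oxt, Sim1 and Trh were at 0 in members, and the summed level was 65.6 CPM, most of it Pou3f2. Ntn1 and Dhrs3 were also present in Chodl-positive cells, with 111 CPM for Ntn1 and 67.6 for Dhrs3.

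These 3 genes also differed with the Nos1 count of the member. In the 28 members with 3 or 4 Nos1 UMIs Pou3f2 was 2.35 CPM (1 UMI, exact Poisson interval 0.0595 to 13.1), against 113 in the 41 others and 4.27 in Nos1-zero Sst cells. Ntn1 was 4.70 CPM (2 UMIs, 0.570 to 17.0) in the 28 and 67.8 in the 41, and Dhrs3 was 7.05 (3 UMIs, 1.45 to 20.6) and 95.4. The higher levels in members were thus carried by those with at least 5 Nos1 UMIs. No test of this split was run.

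The 4 genes lower in members than in Nos1-zero Sst cells were Cartpt (the precursor of the CART peptide), Reln (reelin, a secreted matrix protein), Mgat4c (a glycosyltransferase) and Lypd6b (a relative of Lypd1). Reln, on chromosome 5 (21884454 to 22344702), was 54.2, 49.9 and 81.3 CPM in members of the 3 libraries and 396, 307 and 357 in Nos1-zero Sst cells. Its edgeR log2 change was -2.40 (SE 0.20, adjusted p = 1.61e-05), lower in 3 of 3 libraries. Cartpt was 36.2, 0 and 3.70 CPM against 241, 245 and 54.9 (edgeR log2 -4.24, SE 0.51, adjusted p = 0.00296), but in WT hippocampus replicate 3, outside the test, it was 920 in members and 335 in Nos1-zero cells. Mgat4c and Lypd6b had edgeR log2 changes of -1.86 (SE 0.20, adjusted p = 0.000257) and -1.70 (SE 0.24, adjusted p = 0.00348).

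By list, the calls against Nos1-zero Sst cells fell to Reln and Zbtb20 among the 18 tested genes of other Sst subtypes (median log2 -0.67, against -0.03 over all genes, of which 0.0604% were called higher and 0.0403% lower), Cartpt among 11 neuropeptides (median -1.68) and Pou3f2 among 4 neurosecretory genes (median -1.36). Reln is also 1 of 8 tested neurogliaform and ivy markers, of which 6 had a positive change (median 0.59). Of the 9 tested genes of the long-range type 0 were called and 6 had a positive change (median 0.28). Npy had a log2 change of 1.93 (SE 1.37) and Lhx6 of 0.99 (SE 0.34, edgeR adjusted p = 0.651). No gene was called among 15 of nitric oxide and cGMP signalling, 8 neuropeptide receptors, 5 NMDA receptor subunits, 21 channels, 15 of AMPA and kainate receptors or 19 of GABA synthesis, transport and receptors.

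The Sst-low Nos1 cells include the Nos1 cells of other kinds and differed most from the members. Of 4815 genes tested by the edgeR quasi-likelihood test with Benjamini-Hochberg adjustment, 65 (1.35%) were higher in members and 59 (1.23%) lower. Without WT cortex replicate 2 it was 11 and 5, without null cortex replicate 2 it was 31 and 20, and without null hippocampus replicate 2 it was 226 and 160. All of the 124 called genes that passed the filter on low counts kept their sign in these settings (124, 118 and 114 genes). Of these, 14, 35 and 109 were called again, in that order. DESeq2 called 43 higher and 40 lower.

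Calb2, the calcium buffer calretinin, had the largest rise, with 343 CPM in members of WT cortex replicate 2, 165 in null cortex replicate 2 and 133 in null hippocampus replicate 2, and 0, 6.57 and 3.56 in Sst-low Nos1 cells. The edgeR log2 change was 5.20 (SE 0.37, adjusted p = 5.57e-07). Cplx2, a complexin of the release machinery, was 362, 361 and 225 CPM against 40.8, 34.1 and 42.0 (edgeR log2 2.95, SE 0.26, adjusted p = 7.46e-06). Both were higher in members than in Sst-low Nos1 cells in 3 of 3 libraries without overlap. Over all libraries, however, Calb2 was 158 CPM in members, under the 230 of Chodl-positive and the 250 of Nos1-zero Sst cells. Others named were Ntng1, Cacna2d3, Elfn1, Synpr, Kcnmb4, Stxbp6 and Dbpht2, with log2 changes from 2.72 to 3.62; Elfn1 is also known from other Sst cells, and Cacna2d3 and Kcnmb4 are subunits of calcium and potassium channels.

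Lamp5, the marker of neurogliaform cells, was the gene that fell most. It was 0, 0 and 37.0 CPM in members and 408, 260 and 549 in Sst-low Nos1 cells of the 3 libraries, with an edgeR log2 change of -4.78 (SE 0.54, adjusted p = 0.00288). Lamp5 had a UMI in 2 of 69 members (2.90%), 82.8% of Sst-low Nos1 cells and 2.52% of Mog-positive cells. Thinned, it was 1.61%, 69.5% and 2.06%. The 2 members with Lamp5 had 3 and 7 Lamp5 UMIs beside 26 and 18 of Id2 and 20 and 30 of Hapln1, and both were marked as doublets by Scrublet. The other genes that fell were Cryab, Nrtn, Car2, Vcan, Ddx26b, Dlx6os1, Gabrg3, Zfp536 and Kcnn2, with log2 changes from -2.56 to -4.08. Nrtn, the growth factor neurturin, had 3 UMIs in members, a ratio of 0.0743 (exact binomial interval 0.0152 to 0.219).

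Called genes of the lists in that comparison included Calb2 and Elfn1 among 8 tested of other Sst subtypes, Grin3a among 5 NMDA receptor subunits, Ache among 1 cholinergic gene, Gria3 and Neto1 among 11 of AMPA and kainate receptors, all higher in members, and Lamp5, Kcnh7, Gabbr2 and Gabrg3, lower in members. Over all genes 1.35% were called higher and 1.23% lower. The neurogliaform and ivy list had 8 genes tested, 1 of them with a positive change, and a median log2 of -3.10 against 0.00 over all genes. The Pvalb fast-spiking list had 8 tested, 0 called and a median of -1.99. Of 11 genes of nitric oxide and cGMP signalling 0 were called (median 0.29).

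Markers of other cells were read in the members list by list. The 7 markers of oligodendrocyte precursors were all at 0 UMIs. Of 9 glutamatergic markers 8 were at 0 and Cux2 made up the whole sum of 30.4 CPM. Of 12 cholinergic markers 8 were at 0, Chat and Slc18a3 among them, and Ache was 197 of the summed 256 CPM. The 12 oligodendrocyte markers summed to 199 CPM, with Opalin and Sox10 at 0, and the 9 astrocyte markers to 280.5, with Clu at 204 and with Aldh1l1, Aqp4, Gja1 and Slc1a3 at 0. These sums were 283 and 329 CPM in Nos1-zero Sst cells, above the members.

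Markers of other interneurons were read in the same way. The 9 markers of interneurons from the caudal ganglionic eminence summed to 554 CPM, with Calb2 at 158 (in 14 of 69 members) and Sp8 at 0, and the 8 Th interneuron markers to 97.1, with Slc6a3 at 0. The 10 Pvalb fast-spiking markers summed to 990 CPM in members, 281 in Chodl-positive and 973 in Nos1-zero Sst cells, and in members ran from 560 in WT cortex replicate 2 to 2720 in WT hippocampus replicate 3. The 11 striatal projection neuron markers summed to 486 CPM, with Tac1 at 230 and Adora2a, Drd2, Meis2 and Ppp1r1b at 0. At least 10 UMIs of Id2, Hapln1 and Lamp5 together were found in 3 members, all of null hippocampus replicate 2. Scrublet marked 2 members as doublets, and both were among these 3. The part of these markers in the differences above was not tested.

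Within the members, the 10 genes of heat shock and dissociation stress summed to 4868 CPM and the 18 activity-regulated genes to 527, led by Jun at 188. The activity-regulated sum ran from 115 CPM in WT cortex replicate 1 to 984 in WT hippocampus replicate 2. The 19 transcription factors of interneuron fate summed to 1785 CPM, led by Satb1 at 352. The 22 neuropeptide receptors summed to 352, led by Tacr1. Their sum was between 143 CPM in WT hippocampus replicate 3 and 457 in null cortex replicate 2.

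Grin1, the gene removed in the null mice (chromosome 2, 25291181 to 25319187), checks the genotype labels in these cells. Its level in members of WT cortex was 138, 226 and 195 CPM in order of replicate, and in members of null cortex 0 and 34.5 CPM. WT hippocampus replicates 2 and 3 had 246 and 123 CPM and null hippocampus replicate 2 had 48.0. Every null library was under every WT library. In the cortex the mean was 17.3 in null and 186 in WT libraries (exact permutation p = 0.1, the smallest possible). The null mean includes the 0 of null cortex replicate 1, which has 1 member, beside the 34.5 of replicate 2. Pooled, it was 189 CPM in 38 WT members (142 to 248) and 40.5 in 31 null members (25.4 to 61.3), a remainder of 22 UMIs.

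Genes that differ with genotype in the members could be tested only with sums of at least 5 members, a limit chosen after the data were seen, because no group had 2 libraries of 10 members. The fit had 6 libraries in the 4 groups, with 1 library of null cortex (replicate 2) against 3 of WT cortex, and it assumes that a lone library varies like the others. Of 2804 genes, 0 (0%) were higher and 0 (0%) lower in null than in WT cortex by the edgeR quasi-likelihood test with Benjamini-Hochberg adjustment; 101 had an unadjusted p under 0.05 and DESeq2 called 0. Grin1 itself had a log2 change of -2.45 (SE 0.68, edgeR adjusted p = 0.432), so the gene deleted in these mice did not pass the threshold in this fit. Without WT cortex replicate 1 there were 4 higher and 3 lower, without WT cortex replicate 3 there was 1 and without WT hippocampus replicate 2 there were 2.

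At an adjusted p under 0.05 edgeR called 2 genes, both higher in null cortex and named after their values were seen. Nrgn, neurogranin, had 0, 0 and 35.5 CPM in WT cortex replicates 1, 2 and 3 and 295 in null cortex replicate 2 (edgeR log2 4.80, SE 0.91, adjusted p = 0.0181), where 4 of 16 members, each with 3 or 4 Nos1 UMIs, held all 77 UMIs. Calb1 was 206, 244 and 408 CPM in the WT replicates and 1109 in null cortex replicate 2 (edgeR log2 1.96, SE 0.41, adjusted p = 0.0409). The 1 member of null cortex replicate 1, outside the fit, had 0 Nrgn UMIs and 1 Calb1 UMI. In null cortex replicate 2 the 5 members with 3 or 4 Nos1 UMIs held 237 of its 289 Calb1 UMIs (2682 CPM). The other 11 were at 302 CPM. The WT values also cover members with 3 or 4 Nos1 UMIs, so they are no like-for-like range for the 11. Library and genotype cannot be told apart here.

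Between WT hippocampus, with replicate 2 alone, and WT cortex, the same fit called 0 (0%) genes higher and 0 (0%) lower of 2804, with 253 at an unadjusted p under 0.05 and 0 by DESeq2. Without WT cortex replicate 2 it was 1, mt-Atp8, higher in the hippocampus. Null against WT in the hippocampus was not tested, with 1 library a side. Of the lists, 0 genes were called in either comparison, and the 4 tested NMDA receptor subunits, the deleted Grin1 among them, had a median log2 of -1.41 between null and WT cortex, against -0.04 over all genes.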

How the data were processed

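The deposited files hold a UMI count per gene and cell, made by the authors with Cell Ranger 2.1.1 per the labels (the matrix headers name 3.0.2) on mm10, for 43348 genes in 4 matrices. Barcode suffixes were matched to replicates by the cell numbers that the methods give. Counts were used unscaled for selection and summed per library and kind of cell for edgeR 4.0.16 (TMM, filterByExpr, robust quasi-likelihood; sums of at least 10 cells) with DESeq2 1.42.0 as an alternative; limma was 3.58.1, R 4.3.3, Python 3.11.15, scipy 1.17.1, scanpy 1.11.5 (Scrublet, rate 0.06). The code was tested on simulated data. Genes of the rule were left out of calls. Genes named in the text are among the 10 called genes with the largest rise and the 10 with the largest fall that changed the same way in every library of the fit (for groups, without overlap), called genes of 24 lists, Grin1 for genotype, and genes said to be chosen after their values were seen. Members and lists were chosen with earlier results of these data known. Positions are from GENCODE vM21 on GRCm38. Alternatives were other thresholds, tools, scalings and filters, thinning, doublets removed and each library left out.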

Additional observations from a re-analysis of the deposited data

How the results depend on the processing

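Few cells limit these results: 69 members, 3 libraries with at least 10 of them, and exact permutation tests of shares that cannot go under p = 0.1.

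No paired analysis was possible for genes between null and WT or between regions because only replicate 2 has enough members on both sides, and a paired test of the shares by replicate was not run. The replicate block left no residual degrees of freedom, and it was not run for null against WT or for the regions. Sums of at least 20 cells, WT libraries alone at 10 cells, Sst-low Nos1 cells with Nos1 at least 5, and the regions under the stricter cell filter left too few libraries and were not run, and null against WT hippocampus had no fit at all. Sums of at least 5 cells, also with WT libraries alone, and gene fits with Nos1 at least 5 were chosen after seeing the data.

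The Oxt share stayed 0% in every alternative. In the shares of Nos1 Sst cells below, WT hippocampus replicate 3 had 1 such cell with Nos1 at least 5 UMIs. After thinning, WT hippocampus replicates 1 and 3 had 1 each. Thinned to 3000 UMIs, members were 3.01% of Sst cells and 31.1% of Nos1 Sst cells, null minus WT hippocampus was -1.08 points for the first share and -26.9 for the second, null minus WT cortex was 4.27 and 24.2 points (exact permutation p = 0.3 and 0.1), and hippocampus minus cortex of the second was 26.1 (p = 0.5); called genes numbered 2 against Chodl-positive, 3 against Nos1-zero and 20 against Sst-low Nos1 cells, with 0 of 3, 1 of 6 and 17 of 55 tested calls kept. With Nos1 at least 5 UMIs the shares were 0.869% and 8.93%, null minus WT cortex of the second was -5.14 points, hippocampus minus cortex of the second fell from 45.9 to 5.19 points (exact permutation p = 0.1 and 0.8; the cause was not tested), called genes were 31 against Chodl-positive and 299 against Nos1-zero cells, and Mef2c had a log2 change of -0.66 (edgeR adjusted p 0.982; the cause was not tested). With Sst at least 10000 CPM the second share was 10.9%, and null minus WT hippocampus was -0.0485 and -5.30 points. Without Scrublet doublets the latter was -2.185 points, with 30 and 17 genes called against Chodl-positive and Nos1-zero cells.

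At an adjusted p under 0.05 the called genes numbered 81, 29 and 240 against Chodl-positive, Nos1-zero and Sst-low Nos1 cells and 2 between null and WT cortex. Without a filter on low counts they were 290, 102, 362, 2 (null against WT cortex) and 2 (regions). Without TMM they were 40 and 21 for the first 2; DESeq2 gave 18 for Nos1-zero cells; no library block gave 1 for Nos1-zero and 29 for Sst-low Nos1 cells. Sums of at least 5 cells gave 145 and 140, and with WT libraries alone 40 and 169, against Chodl-positive and Nos1-zero cells. The stricter cell filter gave 2 between null and WT cortex, Nrgn and Calb1.

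Leaving out each library in turn, members were 1.25 to 1.85% of Sst cells and 11.8 to 16.6% of Nos1 Sst cells. Differences in the first share ran from 0.0779 to 2.28 points (null minus WT cortex), -0.823 to 1.62 (null minus WT hippocampus) and -0.729 to 0.0619 (hippocampus minus cortex). In the second they ran from -1.53 to 5.88, -16.7 to 19.9 and 27.7 to 64.2 points. Called genes ran from 0 to 65 against Chodl-positive, 1 to 208 against Nos1-zero and 16 to 386 against Sst-low Nos1 cells, 0 to 7 between null and WT cortex and 0 to 1 between regions. Of the other values for named genes, 422 stayed on the same side of the threshold in the same direction, 95 no longer passed it and 16 passed it newly.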
